A study of Astyanax mexicanus with 6 samples.

Results

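The genes described here code for the metalloproteases that cut the extracellular matrix and cell-surface proteins, and for their dedicated inhibitors. They were chosen by name alone, as every gene listed as *mmp*, *timp*, *adam* or *adamts* with a number, any other *adamts* gene (the ADAMTS-like genes), and *reck*. This gave 65 of the 27420 genes in the tables: 23 matrix metalloproteinases (MMPs), 16 ADAMs, 21 ADAMTS and ADAMTS-like genes, 4 TIMPs and *reck*. Their RNA levels were compared between PEF, an embryonic fibroblast line of the Pachón cavefish form of *Astyanax mexicanus*, and SEF, the corresponding line of the surface form. Bulk RNA was sequenced from 3 libraries of PEF and 3 of SEF. Both lines are labelled wild type, and neither received a treatment.

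Each line was grown from dissociated young embryos, with clones isolated and passaged many times, and each population is represented by its line alone. The population, the clone and the history in culture therefore cannot be told apart, and p-values measure only the spread between libraries of the same line. Cells were detached with a trypsin-like enzyme before freezing and RNA extraction. In bulk RNA, fewer cells expressing a gene and less of its RNA per cell cannot be told apart.

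MMPs are zinc proteases made as inactive precursors. They are either secreted or held at the cell surface, and together they can cut collagens, gelatin, basement membrane and many other matrix proteins. TIMPs bind to the active site of MMPs and block it, and RECK is an inhibitor anchored in the membrane. ADAMs are transmembrane proteins, most of which release growth factors, receptors and Notch from the cell surface, while ADAMTS proteases are secreted and cut proteoglycans or trim procollagen. In fibroblasts these enzymes carry out much of the turnover of the matrix that the same cells lay down.

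Reads on genes numbered 36790663 to 42506026 in PEF libraries and 33381563 to 39156850 in SEF libraries. PEF replicate 1 stood apart from the other PEF libraries: the chi-square of read counts per degree of freedom was 138 and 171 against PEF replicates 2 and 3, which had 17.7 between them, while SEF pairs had 45.9 to 92.2. The 15 fibroblast markers measured, led by *col1a2*, summed to 9931 to 16710 TPM in PEF and 10060 to 13890 TPM in SEF. TPM is the transcript level scaled for gene length and library total. Fibroblast markers tested numbered 14, with 4 higher and 5 lower in PEF. *prrx1b* averaged 20.1 TPM in PEF, against 217 TPM in SEF, while *twist1a* averaged 68.6 TPM in PEF, against 15.7 TPM in SEF. Markers of leukocytes, cells rich in some of these proteases, summed to 125 to 157 TPM in PEF and 116 to 166 TPM in SEF, almost all of it from *itgb2*. Without *itgb2* the sum was 2.82 to 3.66 TPM in PEF and 1.87 to 2.32 TPM in SEF. Of 4 leukocyte markers tested, *csf1ra* (3.91-fold) and *spi1a* (2.67-fold) were higher in PEF, both under 2 TPM in every library, *lcp1* was lower and *itgb2* was not called. *PTPRC*, the 2 genes listed as *mpx* and the 2 listed as *LYZ* were at or under 0.41 TPM in every library, and *lyz* was listed at 0 TPM but had 17, 19 and 6 reads in PEF, against none in SEF. Epithelial markers summed to 331 to 1485 TPM in PEF and 701 to 1034 TPM in SEF, almost all of it from *krt4*, which was not called. Without *krt4* the sum was 0.55 to 0.96 TPM in PEF and 2.24 to 3.84 TPM in SEF. Of 6 epithelial markers tested, *cldn7a* (13.9-fold), *cldn7b* (10.6-fold) and *tp63* (8.26-fold) were lower in PEF and *grhl3* (2.96-fold) was higher. All of these were under 2 TPM in every library. Endothelial markers in all summed to 45.0 to 49.0 TPM in PEF and 99.2 to 142 TPM in SEF, with *cdh5* at 0. Without *kdrl* the endothelial sum was 28.9 to 33.6 TPM in PEF and 34.8 to 41.9 TPM in SEF. Of 4 endothelial markers tested, *kdrl* (4.84-fold) and *fli1a* (1.54-fold) were lower in PEF and *kdr* (29.1-fold) was higher. Cartilage and bone markers summed to 6.53 to 13.7 TPM in PEF and 372 to 557 TPM in SEF, and *col10a1a* and *runx2b* gave most of the sum in SEF; of 11 such genes found, 6 were tested, 5 were lower in PEF and 1 was higher, and *matn1*, *matn3a*, *acana* and *col9a1a* averaged under 0.1 TPM in each line. The part of these differences in the results below was not tested.

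Reads sufficed to test 54 of the 65 genes, and 43 of them differed between PEF and SEF at an adjusted p under 0.05 in edgeR's quasi-likelihood test, 14 higher and 29 lower in PEF. Among all 16670 genes tested 63.5% were called, 30.4% as higher and 33.1% as lower in PEF, while the shares of the tested proteases and inhibitors were 79.6%, 25.9% and 53.7%. Log2 fold changes, PEF over SEF, had a median of −0.93 over these 54 genes and −0.02 over all genes tested. Calls with a log2 fold change beyond 2 in either direction numbered 32, 9 higher and 23 lower in PEF. Such calls made up 23.6% of all genes tested, and there too most were lower in PEF, 2637 against 1299 higher. In 42 of the 54 genes the TPM ranges of PEF and SEF were apart, 13 with PEF above and 29 with PEF below, while this held for 69.5% of all genes tested, 30.7% with PEF above and 38.8% below. Of the 11 untested genes, *mmp30* had no read and 1 *adamts15b* gene (ENSAMXG00000029165) at most 3 reads in any library. The others were the second *mmp9* gene (ENSAMXG00000037117), *mmp20a*, *mmp21*, *adam19b*, *ADAM23*, *adamtsl2*, *adamts9*, *ADAMTS20* and the other *adamts15b* gene. At most 3 reads in every library of PEF, but not of SEF, were found for 11 of the 65 genes and 2974 of all 27420. The reverse held for 1 and 889. Whether reads of 1 line map less well to such genes was not tested.

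**Figure D1:**
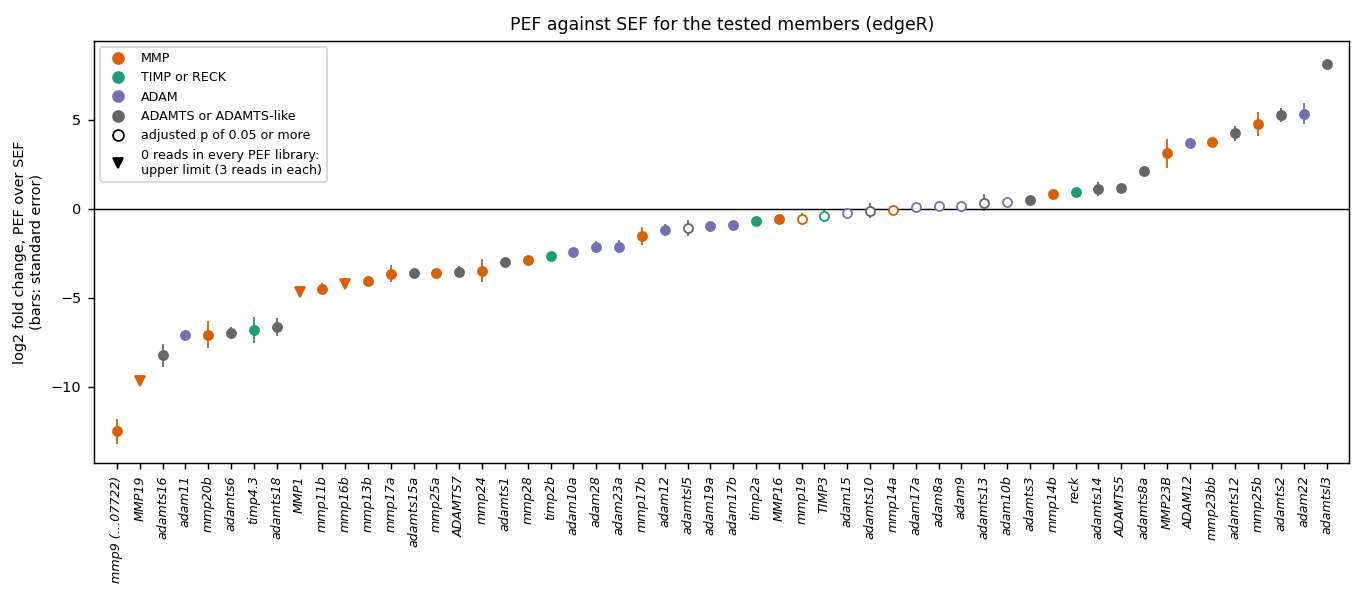
Log2 fold change of PEF over SEF for the 54 tested genes (vertical axis) in rising order; points are edgeR estimates with standard errors, open where the adjusted p was 0.05 or more, and triangles are upper limits for 3 genes with no read in PEF. The values below 0 reach further than those above it, with *mmp9* at the far left at −12.51 and *adamtsl3* at the far right at 8.13.

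MMP transcripts were far less abundant in PEF, and most of the difference came from *mmp9* and *mmp28*. Summed over 23 genes, MMP levels were 1067, 821 and 766 TPM in PEF, against 5856, 3979 and 5096 TPM in SEF. Without *mmp9* and *mmp28*, the sums were 859, 634 and 559 TPM in PEF, against 1016, 733 and 755 TPM in SEF, and the lines overlapped. Of the 19 MMP genes tested, 4 (21.1%) were higher and 13 (68.4%) lower in PEF, against 30.4% and 33.1% of all genes tested. The median log2 fold change of the 19 was −3.48.

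Among the secreted enzymes that cut collagen and gelatin, all 3 tested genes were lower in PEF, beside 33.1% of all genes tested. No gene listed as *mmp2* was among the 65. Genes without a name could not be found by the rule, and 18877 of the 27420 had one. *mmp9* (ENSAMXG00000007722) codes for gelatinase B, which digests denatured collagen and basement membrane collagen. It was listed at 0.71, 0.11 and 0.59 TPM in PEF, against 3197, 1559 and 2882 TPM in SEF. The mean of SEF was at or above that of 99.8% of all genes, and no library of PEF came near it. The log2 fold change was −12.51 (standard error, SE, 0.70, edgeR adjusted p = 1.11e-05) on 27, 5 and 26 reads in PEF and 129186, 73423 and 136454 reads in SEF. The second gene named *mmp9* was not tested. If copies are close in sequence, reads that fit both could be missing from the read counts, because reads mapping to several places were not assigned to genes. No sequence was at hand, so these genes and the other pairs below are related by name only. *mmp13b* (ENSAMXG00000011509), a collagenase, had 1.55, 2.41 and 2.55 TPM in PEF, against 41.1, 37.2 and 36.0 TPM in SEF, a log2 fold change of −4.05 (SE 0.23, adjusted p = 1.26e-05). The gene listed as *MMP1* (ENSAMXG00000038370), the name of the interstitial collagenase of mammals, had no read in PEF and 47, 44 and 142 reads in SEF. Set against 3 reads in each PEF library, the most that a count of 0 was taken to allow, it was at least 25.5-fold lower in PEF, or at least 15.4-fold without SEF replicate 3.

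Of the other secreted MMPs, 4 of 5 tested genes were lower in PEF and 0 were higher, beside 33.1% and 30.4% of all genes tested. *mmp28* (ENSAMXG00000031171) codes for epilysin, an MMP activated inside the cell by furin-type proteases. Its levels were 207, 187 and 206 TPM in PEF, against 1643, 1687 and 1459 TPM in SEF. The libraries within a line lay close together, and the log2 fold change was −2.89 (SE 0.11, adjusted p = 2.88e-06), or 7.43-fold lower in PEF. *mmp11b* (ENSAMXG00000042400), for stromelysin-3, also activated by furin, was expressed at 2.48, 3.18 and 2.63 TPM in PEF, against 97.7, 51.6 and 56.7 TPM in SEF. This was 22.7-fold lower in PEF (log2 fold change −4.50, SE 0.31, adjusted p = 2.62e-05). *mmp20b*, a copy of the gene for the enamel protease enamelysin, had 2 reads in all of PEF and 328 in SEF, a ratio of 163 with a 95% counting interval from 44.8 to 1350, with both PEF reads in replicate 2.

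The tables list 2 genes as *mmp19* in different case, and they behaved differently. *MMP19* (ENSAMXG00000007653) had no read in any PEF library, against 1552, 2050 and 3929 reads and 42.5, 47.6 and 86.9 TPM in SEF. By the same bound as above, its level in PEF was at least 822-fold lower. *mmp19* (ENSAMXG00000006031) had 28.2, 23.6 and 26.7 TPM in PEF, against 31.6, 26.1 and 67.0 TPM in SEF. Those libraries overlapped, and the log2 fold change of *mmp19* was −0.56 (SE 0.35, adjusted p = 0.196). All TPM of the pair in PEF thus came from *mmp19*, while in SEF that gene made up 42.7%, 35.5% and 43.5% of the summed TPM.

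Membrane-bound MMPs had overlapping summed levels in the lines. By the test 8 of 9 genes differed, 2 higher and 6 lower in PEF, while 63.5% of all genes tested were called. Over 9 genes the sum was 780, 564 and 487 TPM in PEF, against 798, 564 and 498 TPM in SEF. Most of it came from the copies of *mmp14*, the gene of MT1-MMP, which cuts fibrillar collagen at the cell surface and activates other MMPs. *mmp14a* (ENSAMXG00000033354) had 540, 376 and 300 TPM in PEF, against 601, 417 and 356 TPM in SEF. Levels fell in replicate order in both lines, and the lines overlapped. The log2 fold change was −0.09 (SE 0.25, adjusted p = 0.772), so that no difference was detected. *mmp14b* (ENSAMXG00000020970) was higher in PEF, at 200, 153 and 160 TPM against 130, 83.7 and 89.8 TPM in SEF (log2 fold change 0.85, SE 0.19, adjusted p = 0.00577). The *mmp14* copies together made up 69.4%, 64.4% and 60.0% of the summed MMP TPM in PEF, against 12.5%, 12.6% and 8.74% in SEF.

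Of the smaller membrane-bound MMPs, most were lower in PEF. *MMP16* (ENSAMXG00000036283), for MT3-MMP, had 35.0, 32.6 and 26.0 TPM in PEF, against 55.5, 49.1 and 41.6 TPM in SEF (log2 fold change −0.57, SE 0.14, adjusted p = 0.0115). Its relative *mmp16b* had no read in PEF and 48, 63 and 58 reads in SEF, which puts its level in PEF at least 18.6-fold lower. The genes *mmp17a*, *mmp17b*, *mmp25a* and *mmp25b* code for MMPs tied to the membrane by a lipid anchor. *mmp17a* was lower in PEF (log2 fold change −3.64, SE 0.45, adjusted p = 0.000384), and so was *mmp17b* (log2 fold change −1.54, SE 0.50, adjusted p = 0.0295). The call of *mmp17b* was lost without PEF replicate 2, SEF replicate 1 or SEF replicate 2, at adjusted p-values of 0.0914, 0.0753 and 0.0843, and its log2 fold change was −2.19 without PEF replicate 1. *mmp25a* and *mmp25b* moved in opposite directions. *mmp25a* had 0.42, 0.41 and 0.48 TPM in PEF, against 5.02, 5.30 and 5.85 TPM in SEF (log2 fold change −3.60, SE 0.19, adjusted p = 8.54e-06). *mmp25b* had 170 reads in all of PEF and 6 in SEF, a ratio of 28.5 with a 95% counting interval from 12.8 to 78.8 (edgeR adjusted p = 0.000718), and its log2 fold change of 4.77 became 6.46 without SEF replicate 2 and 4.18 without SEF replicate 3. *mmp24* had 4 reads in PEF and 49 in SEF, a ratio of 12.2 with a 95% counting interval from 4.46 to 46.5.

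MMP23 genes, whose products lack the hemopexin domain of most MMPs, were higher in PEF. *mmp23bb* (ENSAMXG00000032267) had 30.1, 34.1 and 34.5 TPM in PEF, against 2.64, 2.85 and 2.42 TPM in SEF, 13.7-fold higher in PEF (log2 fold change 3.77, SE 0.12, adjusted p = 1.71e-06). *MMP23B* (ENSAMXG00000015304) had 16.9, 6.62 and 5.34 TPM in PEF, against 0.30, 0.50 and 2.52 TPM in SEF. PEF replicate 1 and SEF replicate 3 stood above the others of their line, and the log2 fold change was 3.12 (SE 0.82, adjusted p = 0.0127). It was 4.66 without SEF replicate 3 and 2.52 without PEF replicate 1.

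**Figure D2:**
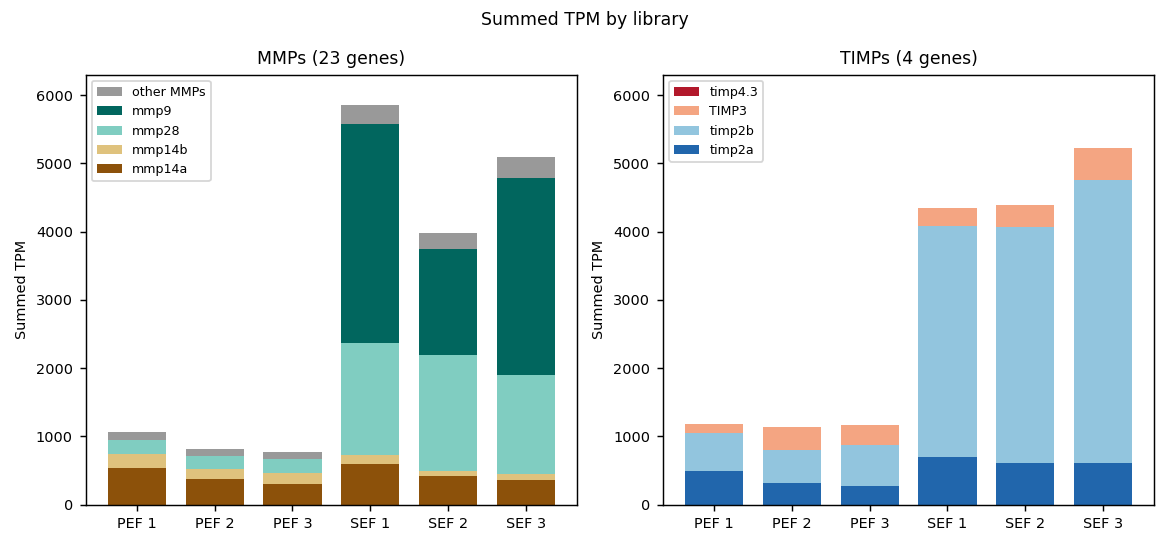
Summed TPM (vertical axis) of the 23 MMP genes (left) and the 4 TIMP genes (right) in each library, stacked by gene. SEF bars are tall through *mmp9*, *mmp28* and *timp2b*, while the *mmp14a* and *mmp14b* segments reach similar heights in both lines.

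TIMP transcripts were lower in PEF as well, and the membrane inhibitor *reck* was higher. Summed over 4 genes, TIMP levels were 1178, 1136 and 1168 TPM in PEF, against 4346, 4391 and 5224 TPM in SEF. *timp2b* (ENSAMXG00000015070), a copy of the gene for TIMP2, which inhibits MMPs and takes part in the activation of MMP2 by MT1-MMP, made up most of the difference. It had 558, 484 and 594 TPM in PEF, against 3383, 3454 and 4149 TPM in SEF. That is 6.27-fold lower in PEF (log2 fold change −2.65, SE 0.15, adjusted p = 1.24e-05), and the SEF mean was at or above 99.8% of all genes. *timp2a* (ENSAMXG00000032674) had 489, 321 and 282 TPM in PEF, against 701, 617 and 612 TPM in SEF, with a log2 fold change of −0.67 (SE 0.19, adjusted p = 0.0191). The libraries did not overlap, but the call was lost without PEF replicate 2, PEF replicate 3 or SEF replicate 1, at adjusted p-values of 0.0720, 0.0517 and 0.0589.

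*TIMP3* (ENSAMXG00000031361), whose product binds to the matrix and also blocks ADAM17 and some ADAMTS proteases, showed no detectable difference. Its levels were 131, 330 and 292 TPM in PEF, against 261, 319 and 463 TPM in SEF (log2 fold change −0.40, SE 0.36, adjusted p = 0.367). PEF replicate 1 was the lowest of all 6 libraries. *timp4.3* had 2 reads in all of PEF and 270 in SEF, a ratio of 134 with a 95% counting interval from 36.8 to 1110, but it was a minor transcript in SEF too, at 1.14, 1.77 and 0.52 TPM.

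*reck* (ENSAMXG00000000796) codes for a membrane-anchored inhibitor of several MMPs, MT1-MMP and MMP9 among them in mammals. It had 440, 422 and 408 TPM in PEF, against 269, 259 and 183 TPM in SEF. All PEF libraries lay above all SEF libraries, at a log2 fold change of 0.92 (SE 0.15, adjusted p = 0.00131). Of the summed TIMP TPM, *timp2b* made up 47.4%, 42.7% and 50.9% in PEF, against 77.8%, 78.7% and 79.4% in SEF. The ratio of summed MMP to summed TIMP transcripts was 0.91, 0.72 and 0.66 in PEF and 1.35, 0.91 and 0.98 in SEF, and the highest value of PEF and the lowest of SEF both rounded to 0.91. For *mmp14a* and *mmp14b* over *timp2a* and *timp2b*, the ratio was 0.71, 0.66 and 0.52 in PEF, against 0.18, 0.12 and 0.094 in SEF. These sums and ratios of TPM describe the libraries and were not tested. They cover only genes found by name, with no gene listed as *mmp2* among them.

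**Figure D3:**
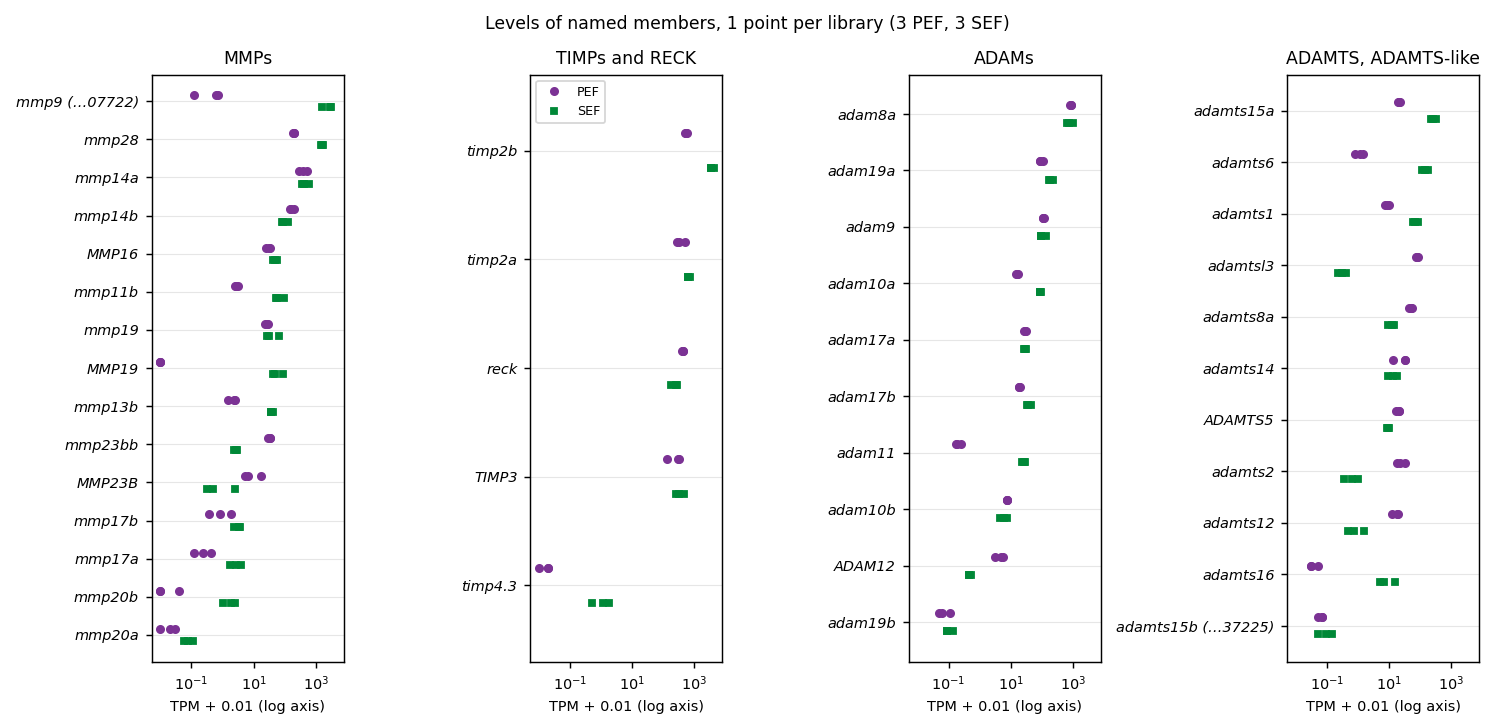
Transcript level (horizontal axis, TPM + 0.01 on a log scale) of the 41 genes named by the fixed rule, with 1 point per library, PEF as circles above SEF as squares. *mmp9* spans from under 1 TPM in PEF to over 1559 TPM in SEF, while *mmp14a*, *adam8a*, *adam9* and *adam17a* overlap.

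ADAM transcripts overlapped between the lines in summed level, at 1191, 1133 and 1083 TPM in PEF, against 1519, 1213 and 1164 TPM in SEF. Of 14 tested, 2 were higher and 7 lower in PEF, so that 64.3% were called, near the 63.5% of all genes. *adam8a* (ENSAMXG00000003629) codes for ADAM8, a sheddase known mainly from leukocytes and osteoclasts. It had 881, 849 and 811 TPM in PEF, against 1006, 739 and 665 TPM in SEF, the most of any ADAM in every library, and the lines overlapped (log2 fold change 0.16, SE 0.17, adjusted p = 0.427). *adam9* (ENSAMXG00000019687), another sheddase, also overlapped, with 117, 111 and 110 TPM in PEF, against 92.2, 92.02 and 134 TPM in SEF (log2 fold change 0.19, SE 0.18, adjusted p = 0.389). Without SEF replicate 3 it was called, at a log2 fold change of 0.40 (adjusted p = 0.0177). *adam19a* (ENSAMXG00000018219), for meltrin beta, was lower in PEF, at 107, 89.99 and 85.1 TPM against 224, 187 and 167 TPM in SEF (log2 fold change −0.94, SE 0.13, adjusted p = 0.000624). *adam15* and *adam28* were low, and of these only *adam28* was called (adjusted p = 0.00135). It had 11 reads in all of PEF and 50 in SEF, a ratio of 4.52 with a 95% counting interval from 2.32 to 9.62.

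The principal sheddases ADAM10, which cuts Notch, and ADAM17, which releases TNF-alpha and ligands of the EGF receptor, are each listed as an a and a b copy, and in each pair 1 copy was lower in PEF. *adam10a* (ENSAMXG00000014786) had 15.9, 17.2 and 14.98 TPM in PEF, against 95.8, 87.6 and 87.7 TPM in SEF. It was 5.41-fold lower in PEF (log2 fold change −2.44, SE 0.11, adjusted p = 4.54e-06). *adam10b* (ENSAMXG00000038598) had 7.86, 7.63 and 7.58 TPM in PEF, against 7.62, 5.90 and 4.40 TPM in SEF, with a log2 fold change of 0.38 (SE 0.18, adjusted p = 0.105). It was called without SEF replicate 1 (adjusted p = 0.0167). The *adam10a* copy made up 66.9%, 69.3% and 66.4% of the pair in PEF, against 92.6%, 93.7% and 95.2% in SEF. *adam17b* (ENSAMXG00000004790) had 19.9, 17.98 and 18.8 TPM in PEF, against 33.6, 35.5 and 45.7 TPM in SEF (log2 fold change −0.92, SE 0.14, adjusted p = 0.00110). *adam17a* (ENSAMXG00000017304) was at 31.2, 28.8 and 26.0 TPM in PEF, against 28.2, 31.1 and 27.7 TPM in SEF (adjusted p = 0.501). The difference between the copies of a pair was not tested.

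*ADAM12* and *adam12*, for meltrin alpha, also moved in opposite directions. *ADAM12* (ENSAMXG00000007834) had 5.75, 4.85 and 3.12 TPM in PEF, against 0.51, 0.44 and 0.43 TPM in SEF (log2 fold change 3.70, SE 0.28, adjusted p = 3.91e-05). *adam12* (ENSAMXG00000011729) had 0.26, 0.46 and 0.46 TPM in PEF, against 1.29, 0.86 and 0.74 TPM in SEF (log2 fold change −1.19, SE 0.36, adjusted p = 0.0233), a call that was lost without SEF replicate 1 (adjusted p = 0.0742) and with the replicate number as a block (adjusted p = 0.0697).

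Here *adam11*, *adam22*, *adam23a* and *ADAM23* are the ADAMs without a protease site. Their products are known in mammals as neuronal surface proteins that bind LGI proteins. All 3 of these genes that could be tested differed, while 63.5% of all genes tested were called. *adam11* (ENSAMXG00000021450) was near absent in PEF, at 0.18, 0.24 and 0.16 TPM against 22.8, 28.1 and 26.7 TPM in SEF (log2 fold change −7.11, SE 0.19, adjusted p = 1.05e-06). On its 19 reads in PEF and 2701 in SEF the ratio was 141, with a 95% counting interval from 90.3 to 235. *adam22* went the other way, with 263 reads in all of PEF and 6 in SEF, a ratio of 44.1 with a 95% counting interval from 20 to 121 (edgeR adjusted p = 0.000205), and its log2 fold change of 5.36 became 6.35 without SEF replicate 1 and 4.74 without SEF replicate 2. *adam23a* was 4.36-fold lower in PEF, with 8 to 14 reads a library in PEF, against 33 to 55 in SEF.

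**Figure D4:**
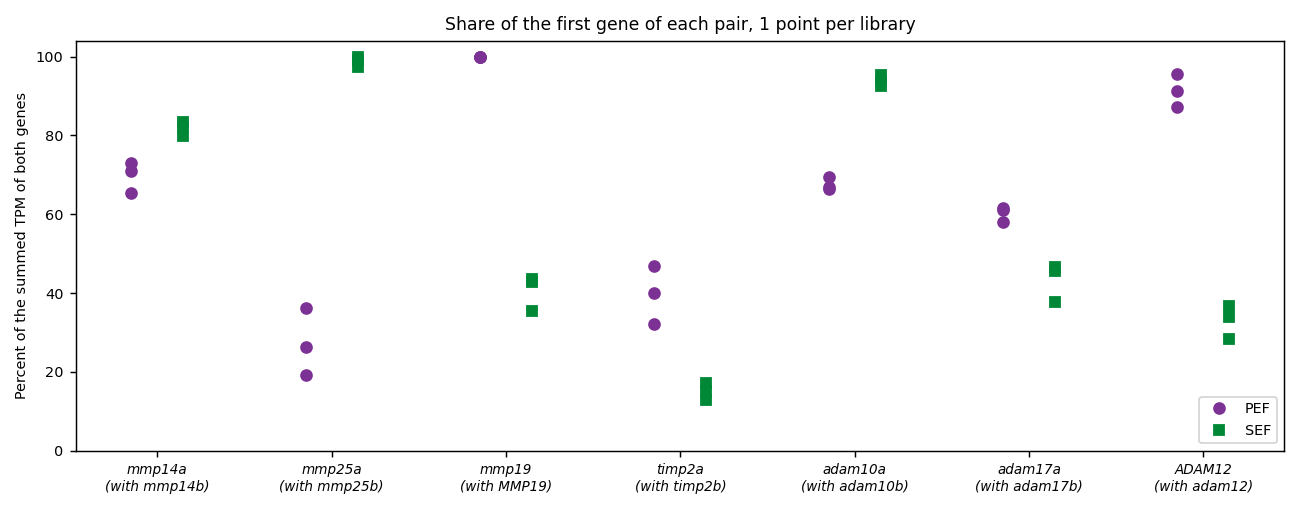
Share of the summed TPM of a gene pair taken by the first gene (vertical axis, percent), with 1 point per library, PEF as circles left of SEF as squares, for 7 of the 15 pairs of similar name, chosen after their values were seen. In every pair shown the points of the lines are apart, as for *adam10a* at 66.4% to 69.3% in PEF and 92.6% to 95.2% in SEF. Some pairs not shown overlap, as for *MMP23B* with *mmp23bb* at 13.4% to 35.9% in PEF and 10.2% to 51.0% in SEF.

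ADAMTS and ADAMTS-like transcripts summed to 249, 260 and 239 TPM in PEF, against 643, 512 and 441 TPM in SEF. Of 16 tested, 7 (43.8%) were higher and 6 (37.5%) lower in PEF, beside 30.4% and 33.1% of all genes tested. The genes with the most transcripts were not the same: *adamtsl3* and *adamts8a* made up 31.3% ± 1.23 and 19.8% ± 2.58 of the sum in PEF (SD, n = 3) and at most 3.29% each in any SEF library. In SEF, *adamts15a* and *adamts6* made up 49.6% ± 0.79 and 26.9% ± 1.1 of it.

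The procollagen N-propeptidases, ADAMTS2, ADAMTS3 and ADAMTS14, trim the amino-terminal end of fibrillar procollagens. All 3 genes were called as higher in PEF, beside 30.4% of all genes tested, but 2 of these calls were fragile. *adamts2* (ENSAMXG00000007476) had 31.3, 22.1 and 18.3 TPM in PEF, against 1.0, 0.62 and 0.33 TPM in SEF. It was 38.3-fold higher in PEF (log2 fold change 5.26, SE 0.40, adjusted p = 3.91e-05). *adamts14* (ENSAMXG00000018941) had 13.5, 32.9 and 31.7 TPM in PEF, against 17.8, 12.9 and 8.82 TPM in SEF, where PEF replicate 1 fell within the range of SEF (log2 fold change 1.099, SE 0.40, adjusted p = 0.0445). *adamts3* (ENSAMXG00000012344) had 5.90, 4.83 and 3.93 TPM in PEF, against 3.43, 3.20 and 3.70 TPM in SEF (log2 fold change 0.50, SE 0.17, adjusted p = 0.0395). Both of these last calls were lost under 10 of 15 alternatives, *adamts14* without PEF replicate 2 or 3 or SEF replicate 2 or 3 (adjusted p from 0.111 to 0.133) and *adamts3* without PEF replicate 1 or 2 or SEF replicate 1 or 2 (adjusted p from 0.0865 to 0.132).

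The proteases that cut hyalectans, the proteoglycans that bind hyaluronan such as versican and aggrecan, went in both directions. *adamts15a* (ENSAMXG00000029685) had 18.5, 21.7 and 21.1 TPM in PEF, against 314, 254 and 223 TPM in SEF, 12.1-fold lower in PEF (log2 fold change −3.60, SE 0.18, adjusted p = 7.21e-06). *adamts1* (ENSAMXG00000015177) was 7.93-fold lower, with 9.66, 8.45 and 7.15 TPM in PEF against 85.9, 67.7 and 58.4 TPM in SEF (adjusted p = 1.33e-05). In contrast *adamts8a* (ENSAMXG00000033321) had 49.8, 44.5 and 53.1 TPM in PEF, against 9.20, 12.4 and 14.5 TPM in SEF, a log2 fold change of 2.15 (SE 0.19, adjusted p = 7.26e-05). *ADAMTS5* (ENSAMXG00000015190), the main aggrecanase of mouse cartilage, was 2.24-fold higher, at 20.8, 20.4 and 15.98 TPM in PEF against 9.01, 9.70 and 8.13 TPM in SEF (adjusted p = 0.000240). The lines did not overlap for any of these genes, while this held for 69.5% of all genes tested. *adamts9*, *ADAMTS20* and the *adamts15b* genes, also of this group, were not tested. *adamts15a* and *adamts8a*, which changed in opposite directions, are direct neighbors in the RefSeq assembly AstMex3_surface, with no other protein-coding gene starting between them.

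Of the remaining ADAMTS genes, *adamts6*, *adamts16* and *adamts18* were lower in PEF. *adamts6* (ENSAMXG00000020699), whose product is known for cutting fibrillin microfibril components, had 0.77, 1.11 and 1.46 TPM in PEF, against 179, 139 and 113 TPM in SEF. It was 125-fold lower in PEF (log2 fold change −6.97, SE 0.33, adjusted p = 5.91e-06). *adamts16* (ENSAMXG00000012569) had 12 reads in all of PEF and 3596 in SEF, a ratio of 298 with a 95% counting interval from 170 to 577, and *adamts18* had 2 reads in PEF and 240 in SEF, a ratio of 119 with an interval from 32.7 to 990. Without SEF replicate 1, the log2 fold change of *adamts16* was −7.60 in place of −8.23. *adamts12* (ENSAMXG00000030557) and *ADAMTS7* (ENSAMXG00000007208) code for a related pair of proteases that cut cartilage oligomeric matrix protein. *adamts12* was higher, at 18.4, 17.98 and 12.6 TPM in PEF against 1.55, 0.72 and 0.46 TPM in SEF (log2 fold change 4.25, SE 0.43, adjusted p = 0.000150), with a log2 fold change of 4.88 without SEF replicate 1. *ADAMTS7* was lower, at 0.11, 0.11 and 0.12 TPM in PEF against 1.30, 1.28 and 2.08 TPM in SEF (log2 fold change −3.54, SE 0.31, adjusted p = 7.73e-05). No difference was detected for *adamts10* and *adamts13* (adjusted p = 0.846 and 0.564), both under 1 TPM.

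ADAMTS-like proteins resemble ADAMTS proteases but have no protease domain, and they bind to the matrix. *adamtsl3* (ENSAMXG00000019613) was the largest rise of all 54 genes. It had 77.3, 84.8 and 71.9 TPM in PEF, against 0.22, 0.40 and 0.29 TPM in SEF, 281-fold higher in PEF (log2 fold change 8.13, SE 0.25, adjusted p = 1.57e-06). *adamtsl5* was low in both lines and was not called (adjusted p = 0.0789), although it was without PEF replicate 1 (adjusted p = 0.00358).

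Genes that act on or with these proteases were taken from lists of the pathways around them, and their counts stand beside 30.4% higher and 33.1% lower among all genes tested. In the plasminogen system, which produces plasmin, an activator of several MMPs, 7 of 10 tested genes were lower in PEF and 0 were higher. Plasminogen itself, *plg*, had 1 read in all of PEF and 2698 in SEF, a ratio of 2680 with a 95% counting interval from 481 to 106000. The inhibitor *serpine2* averaged 1.45 ± 0.30 TPM in PEF, against 20.4 ± 3.38 TPM in SEF (SD, n = 3 each), and the plasminogen receptor gene *s100a10a* 78.5 ± 16.9 TPM in PEF, against 631 ± 120 TPM in SEF. For the other copy by name, *s100a10b*, at 1028 ± 212 TPM in PEF, against 885 ± 116 TPM in SEF, no difference was detected (edgeR adjusted p = 0.155). Nor was one detected for the plasminogen activator gene *plat* (adjusted p = 0.222). *anxa2a*, at 594 ± 166 TPM in PEF, against 939 ± 175 TPM in SEF, was called as lower (log2 fold change −0.65, edgeR adjusted p = 0.0346). That call was lost without PEF replicate 2 or 3 or SEF replicate 2 or 3 (adjusted p from 0.061 to 0.115). Of the proprotein convertases, which cut the inhibitory part from membrane-bound MMPs, MMP11, MMP28 and ADAMs, 3 of 4 were lower in PEF: *furina* (log2 fold change −1.56), *furinb* (−2.56) and *pcsk7* (−1.36). *pcsk5b* was higher (log2 fold change 2.10).

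Astacin-like proteases and their partners differed in all 7 tested genes, 2 higher and 5 lower in PEF. *bmp1a*, for the protease that removes the carboxy-terminal end of procollagen, was higher, with 118 ± 9.15 TPM in PEF, against 59.3 ± 7.59 TPM in SEF (SD, n = 3 each; log2 fold change 1.07). Its enhancer *pcolcea* was lower, at 305 ± 18.4 TPM in PEF, against 1900 ± 197 TPM in SEF (log2 fold change −2.57), and so were *pcolceb* and *pcolce2b*. Of 11 tested cell-surface peptidases, 7 were lower in PEF and 1 was higher. *fap*, for fibroblast activation protein, averaged 0.093 TPM in PEF, against 112 TPM in SEF, *dpp4* 0.20 TPM in PEF, against 18.2 TPM in SEF, and 1 gene listed as *ANPEP* (ENSAMXG00000021446) 0.97 TPM in PEF, against 163 TPM in SEF. *ece1* was 2.34-fold lower, at 77.6 TPM in PEF, against 195 TPM in SEF. Of 21 cathepsins tested, 8 were higher and 8 lower in PEF, or 38.1% each. Calls beyond a log2 fold change of 2 numbered 8, 3 higher and 5 lower, while such calls were 23.6% of all genes tested. *ctsd* (log2 fold change −0.77), *ctsba* (−0.71) and *ctsz* (ENSAMXG00000006750, −0.79) were lower, and *ctsla* (0.71) was higher. Larger changes included 1 gene listed as *ctsl.1* (ENSAMXG00000029871), at 0.0067 TPM in PEF, against 47.8 TPM in SEF. Another gene listed as *ctsz* (ENSAMXG00000031921) averaged 65.0 TPM in PEF, against 3.28 TPM in SEF. For *ctsk*, the collagen-degrading cathepsin, no difference was detected at 543 TPM in PEF, against 527 TPM in SEF (edgeR adjusted p = 0.433).

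Of 9 tested partners of the sheddases, 3 were lower in PEF and 0 higher, and the 33.3% lower was near the 33.1% of all genes. *tspan5a*, for a tetraspanin that escorts ADAM10, averaged 0.097 TPM in PEF, against 63.2 TPM in SEF (log2 fold change −9.96, SE 0.18), and *rhbdf1a*, for an iRhom that escorts ADAM17, was lower too (log2 fold change −0.43). The third, *tspan33a*, was low in both lines, with 14 reads in all of PEF and 91 in SEF. Among EGF-family ligands and receptors, which ADAMs release or serve, 3 of 7 were higher and 2 lower. *hbegfa* had 329, 124 and 112 TPM in PEF, against 11.7, 16.2 and 33.5 TPM in SEF (log2 fold change 3.26, or 2.65 without PEF replicate 1), and *erbb2* was higher (log2 fold change 0.98) and *egfra* lower (log2 fold change −0.61).

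Transcription factors of the AP-1, ETS and RUNX families, known to act on MMP promoters in mammals, were mostly higher in PEF, 8 of 14 tested, and 2 were lower. *fosl1a* had a log2 fold change of 4.84, *fosab* of 1.89 and *junbb* of 2.28. Without PEF replicate 1, the highest library for all 3, these were 3.55, 1.23 and 1.26, each still called. The levels of *junbb* were 1709, 414 and 363 TPM in PEF, against 149.6, 151 and 233 TPM in SEF, and those of *fosl1a* 388, 70.3 and 63.4 TPM in PEF, against 3.80, 8.72 and 6.01 TPM in SEF. *junba* was lower, at 3.04 ± 1.45 TPM in PEF, against 467 ± 218 TPM in SEF (SD, n = 3 each), and *runx2b*, the bone regulator also among the cartilage and bone markers, averaged 0.02 TPM in PEF, against 171 TPM in SEF. Of 20 matrix substrates tested, 35.0% were higher and 40.0% lower, near the shares of all genes. *col1a1a* and *col1a1b* were called as higher, and *fn1a* as lower (log2 fold change −1.18). The calls of *col1a1a* and *col1a1b* were lost without SEF replicate 2 or 3 (adjusted p from 0.0568 to 0.0717), and that of *fn1a* without PEF replicate 2 or 3 or SEF replicate 3 (adjusted p from 0.0596 to 0.0877). *sparc* was higher, with 8102 ± 3020 TPM in PEF, against 723 ± 124 TPM in SEF (SD, n = 3 each).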

How the data were processed

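Libraries were made with a stranded mRNA kit. The authors deposited raw read counts per gene from STAR 2.7.3a and TPM values from RSEM, scaled for transcript length and library total and rounded; the build, annotation and strand setting are not given in the sources used here, so overlapping or near-identical genes are uncertain. Rows of reads assigned to no gene (38.8% to 41.1% of a library) were left out.

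Groups followed the line in the sample titles. Read counts were tested with edgeR 4.0.16 in R 4.3.3: filterByExpr, TMM, quasi-likelihood test, Benjamini-Hochberg adjustment over all genes tested, threshold 0.05. The standard error was the log2 fold change over the square root of F. Where a line had no read, the fold bound used 3 reads in each library; where it had few, pooled reads gave a ratio with an exact 95% interval. Bounds and intervals cover counting error only. Alternatives were DESeq2 1.42.0, upper-quartile scaling, other filters, limma 3.58.1 on log2(TPM + 1) or log2(TPM + 0.1), a test that the absolute change exceeds 1 on the log2 scale, a replicate block and leaving out each library.

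Genes named were all TIMP and *reck* genes, those of at least 10 TPM on average in a line, the 10 largest called rises and falls without overlap and at least 100 reads on average in the higher line, and their a or b copies. Up to 4 called genes of each other list, those of highest TPM, were named. Others (*MMP1*, *mmp16b*, *mmp24*, *mmp25a*, *mmp25b*, *adam12*, *adam15*, *adam22*, *adam23a*, *adam28*, *ADAMTS7*, *adamts3*, *adamts10*, *adamts13*, *adamts18*, *adamtsl5*, *s100a10b*, *plat*, *ctsk*, *ctsl.1*, the *ctsz* gene ENSAMXG00000031921, *runx2b* and the cell type markers) were named after their values were seen. Members and lists were chosen with earlier results of these data known. Gene neighbors came from RefSeq AstMex3_surface, in which 47 of the 65 symbols were found.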

Additional observations from a re-analysis of the deposited data

How the results depend on the processing

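The number of proteases and inhibitors called ranged from 32 to 47 over the alternatives and from 41 to 45 when each library was left out, and remained within 1.5 times the 43 first given. Tested against a log2 fold change of 1, 9 were higher in PEF in place of 14, and 5103 of all genes were called in place of 10579. Of the recomputed fold changes, 736 kept their direction and their side of the threshold, 37 lost the call, 5 gained it and 6 changed sign, in genes that were not called. These were *adam17a* on log2(TPM + 1) with and without a filter (−0.017 in both) and on log2(TPM + 0.1) (−0.018), *adamts10* without PEF replicate 3 (0.28) in a leave-one-out range from −0.45 to 0.28, and *mmp14a* without PEF replicate 3 (0.09) or SEF replicate 1 (0.15) in a range from −0.29 to 0.15. The cause was not tested. Leaving out 1 library left summed TPM of MMPs at 793 to 944 in PEF and 4537 to 5476 in SEF. Over all genes tested, replicate numbers did not pair the libraries: same-numbered libraries deviated from their line's mean with correlations of −0.04, 0.07 and −0.14. Some genes, *mmp14a*, *timp2a* and *adam19a* among them, still fell in TPM in replicate order in both lines, and the reason was not tested. With the number as a replicate block 41 proteases and inhibitors (12 higher, 29 lower, with *adam12*, *adamts3* and *adamts14* lost and *adamtsl5* gained) and 9735 of all genes were called. Depth limited the 11 untested genes, for which no test was made, and the genes with few reads in a line, whose ratios carry wide counting intervals.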
